A study of Rattus norvegicus with 24 samples.

Results

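Insulin-like growth factor 1 (IGF-1) and insulin act on skeletal muscle through a shared signalling cascade, and 10 genes of that cascade were followed in the medial gastrocnemius of rats with and without cardiac cachexia. They were Igf1, Igf1r, Insr, Irs1, Irs2, Igfbp5, Pik3r1, Akt1, Akt2 and Eif4ebp1, looked up by gene symbol, and all 10 of them were among the 10851 genes of the expression table. RNA had been sequenced from the left leg of 24 male Wistar rats, 6 in each of 4 groups, with poly-A selected stranded libraries and 1 rat per library. The groups were labelled Saline-Sedentary (Sed), Saline-Exercised (Ex), Monocrotaline-Sedentary (CC-Sed) and Monocrotaline-Exercised (CC-Ex). Monocrotaline, given as a single injection, damages the vessels of the lung, so that the right ventricle works against raised pressure and fails, and the rats lose body and muscle mass. This model of cardiac cachexia (CC) is therefore one of right-sided heart failure, and the CC rats studied were survivors in which the right ventricle had remodelled. Ex and CC-Ex rats ran on a treadmill during the weeks after the injection, whereas Sed and CC-Sed rats did not train. The age of the rats is not given in the sources used here.

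In muscle, IGF-1 binds its receptor, encoded by Igf1r, and insulin binds the insulin receptor, encoded by Insr, and both receptors phosphorylate the adaptor proteins IRS1 and IRS2. The adaptors recruit PI3-kinase through its regulatory subunit p85α, the product of Pik3r1, and PI3-kinase activates the AKT kinases. AKT then raises protein synthesis through mTOR, which releases the brake held by the translation inhibitor 4E-BP1 (Eif4ebp1), and keeps the FoxO transcription factors, which drive genes of muscle breakdown, out of the nucleus. All values below are levels of messenger RNA, and neither protein nor phosphorylation was measured.

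RefSeq start-site windows on the rat build GRCr8 matched 8 of the 10 genes, the exceptions being Irs2 and Eif4ebp1. The windows ran from 250 bases before to 50 bases after the annotated start. They were searched on both strands for a FoxO element (GTAAACA), an insulin response sequence (CAAAACA) and a GC box (GGGCGG), because FoxO factors are among the insulin-regulated factors known to act on genes of this pathway. The 250 bases before the start are shown for Insr and Igf1, which held a FoxO or insulin response match, and for Pik3r1 and Igf1r, which held GC boxes and had the smallest pooled p-values among the genes that did. Letters in capitals mark the matches, in some cases as the reverse complement (TGTTTAC or CCGCCC), and no match overlapped another.
Insr, chr12:6128804-6129053, minus strand: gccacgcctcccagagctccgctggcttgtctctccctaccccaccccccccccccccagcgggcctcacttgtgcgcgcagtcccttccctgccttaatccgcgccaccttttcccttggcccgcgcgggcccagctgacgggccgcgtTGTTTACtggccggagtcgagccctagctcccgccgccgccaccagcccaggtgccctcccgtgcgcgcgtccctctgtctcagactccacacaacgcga
Igf1, chr7:24172282-24172531, plus strand: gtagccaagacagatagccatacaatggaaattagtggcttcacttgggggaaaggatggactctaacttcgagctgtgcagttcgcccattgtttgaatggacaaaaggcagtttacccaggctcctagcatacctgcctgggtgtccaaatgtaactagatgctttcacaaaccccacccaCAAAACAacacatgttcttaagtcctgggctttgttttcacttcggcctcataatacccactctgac
Pik3r1, chr2:34697661-34697910, minus strand: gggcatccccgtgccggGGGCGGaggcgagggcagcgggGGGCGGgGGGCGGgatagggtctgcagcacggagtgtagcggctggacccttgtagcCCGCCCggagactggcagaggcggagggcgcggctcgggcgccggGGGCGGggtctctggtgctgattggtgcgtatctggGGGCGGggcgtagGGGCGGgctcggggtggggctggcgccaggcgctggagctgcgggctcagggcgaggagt
Igf1r, chr1:130959747-130959996, plus strand: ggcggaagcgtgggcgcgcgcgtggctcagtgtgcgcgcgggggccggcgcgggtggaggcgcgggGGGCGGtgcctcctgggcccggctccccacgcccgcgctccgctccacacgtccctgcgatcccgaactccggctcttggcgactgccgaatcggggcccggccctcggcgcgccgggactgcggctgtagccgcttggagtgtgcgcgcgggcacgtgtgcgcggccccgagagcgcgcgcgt

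The FoxO element was matched in 1 of the 8 windows, that of Insr, beginning 100 bases before the start, and in 3.78% of 33469 rat windows of the same length. The insulin response sequence was matched in 1 of 8, that of Igf1, beginning 67 bases before the start, and in 6.28% of all windows. GC boxes lay in 3 of 8 windows, those of Pik3r1 (7 matches), Irs1 (3 matches) and Igf1r (1 match), and in 33.1% of all windows. The windows of Igf1r, Pik3r1, Insr and Irs1 were made up of 78%, 75.3%, 71.3% and 70.3% G and C, whereas the median over all windows was 51.7% and 7.89% of windows exceeded 70%. Those of Akt1 (56.0%), Igfbp5 (50.7%), Akt2 (49.7%) and Igf1 (48.3%) lay near that median. These matches describe letters in a window and not sites shown to be bound.

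The rats had totals of 37816239 to 50350554 counts, and the libraries of CC-Ex rats had been given lower running numbers (median 4) than those of Sed (15.5), Ex (18) and CC-Sed (10). CC-Ex replicate 5 stood apart from the other rats, at 96.5 units on the first principal component of log2 expression, which held 39.7% of the variance. CC-Sed replicates 6, 1 and 3 came next, at 51.7, 47.5 and 35.6. CC-Sed replicate 4 (-16.3) and CC-Ex replicates 1 (-16.7) and 4 (-11.5) lay within the range of the saline rats (-27.8 to -2.56). Levels are given in CPM, the count of a gene scaled to a library of common size after TMM normalization, which corrects for depth and composition but not for the length of a gene, so they are compared between groups and never between genes. Of 15 markers of skeletal muscle fibres 13 were measured, and their summed level was at least 127756 CPM in each rat. A gene is said to have risen or fallen where the quasi-likelihood F test of edgeR gave a Benjamini-Hochberg adjusted p-value under 0.05 over all 10851 genes, and an adjusted p beside a Log2FC comes from that test. A Log2FC is the difference on the log2 scale with its SE (standard error). In bulk muscle, fewer cells of a type and less RNA per cell cannot be told apart.

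The question of the first comparisons was how the messenger RNA levels of this cascade differed between saline and CC rats. It was asked in sedentary rats (Sed vs. CC-Sed) and in trained rats (Ex vs. CC-Ex). In Sed vs. CC-Sed, 8 of the 10 genes passed the test, against 6.46% of all genes. The 10 genes were chosen with earlier results of these data known, so these shares describe the list and do not test the cascade. The receptors Igf1r and Insr, the adaptor Irs2, the PI3-kinase subunit Pik3r1 and the translation inhibitor Eif4ebp1 rose (5 genes, where 4.3% of all genes rose), and the ligand Igf1, the adaptor Irs1 and the binding protein Igfbp5 fell (3 genes, where 2.16% of all genes fell). In Ex vs. CC-Ex only Pik3r1 passed the adjusted test, 1 of 10 against 0.995% of all genes, and 6 of 10 had an unadjusted p-value under 0.05, against 22.6%. These counts depended on single rats. With 1 rat left out, between 3 and 7 of the 10 genes passed in Sed vs. CC-Sed and between 0 and 5 in Ex vs. CC-Ex. Over all genes, the 701 that passed in Sed vs. CC-Sed became 173 when CC-Sed replicate 6 was left out and 1726 when replicate 4 was. The 108 in Ex vs. CC-Ex became 2 without any one of Ex replicates 2 to 6 or CC-Ex replicate 6, and 847 without CC-Ex replicate 4. Each of the 12 such fits moved the count over all genes by more than 1.5 times in both comparisons. With both saline groups set against both CC groups, 12 rats a side, the same 8 genes passed in the same directions, against 27.8% of all genes. The pooled comparison shares its rats with the other comparisons and is not independent of them. The median Log2FC of the 10 genes was 0.28 in the pooled comparison, since rises and falls offset each other, and that of all genes was 0.01.

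**Figure D1:**
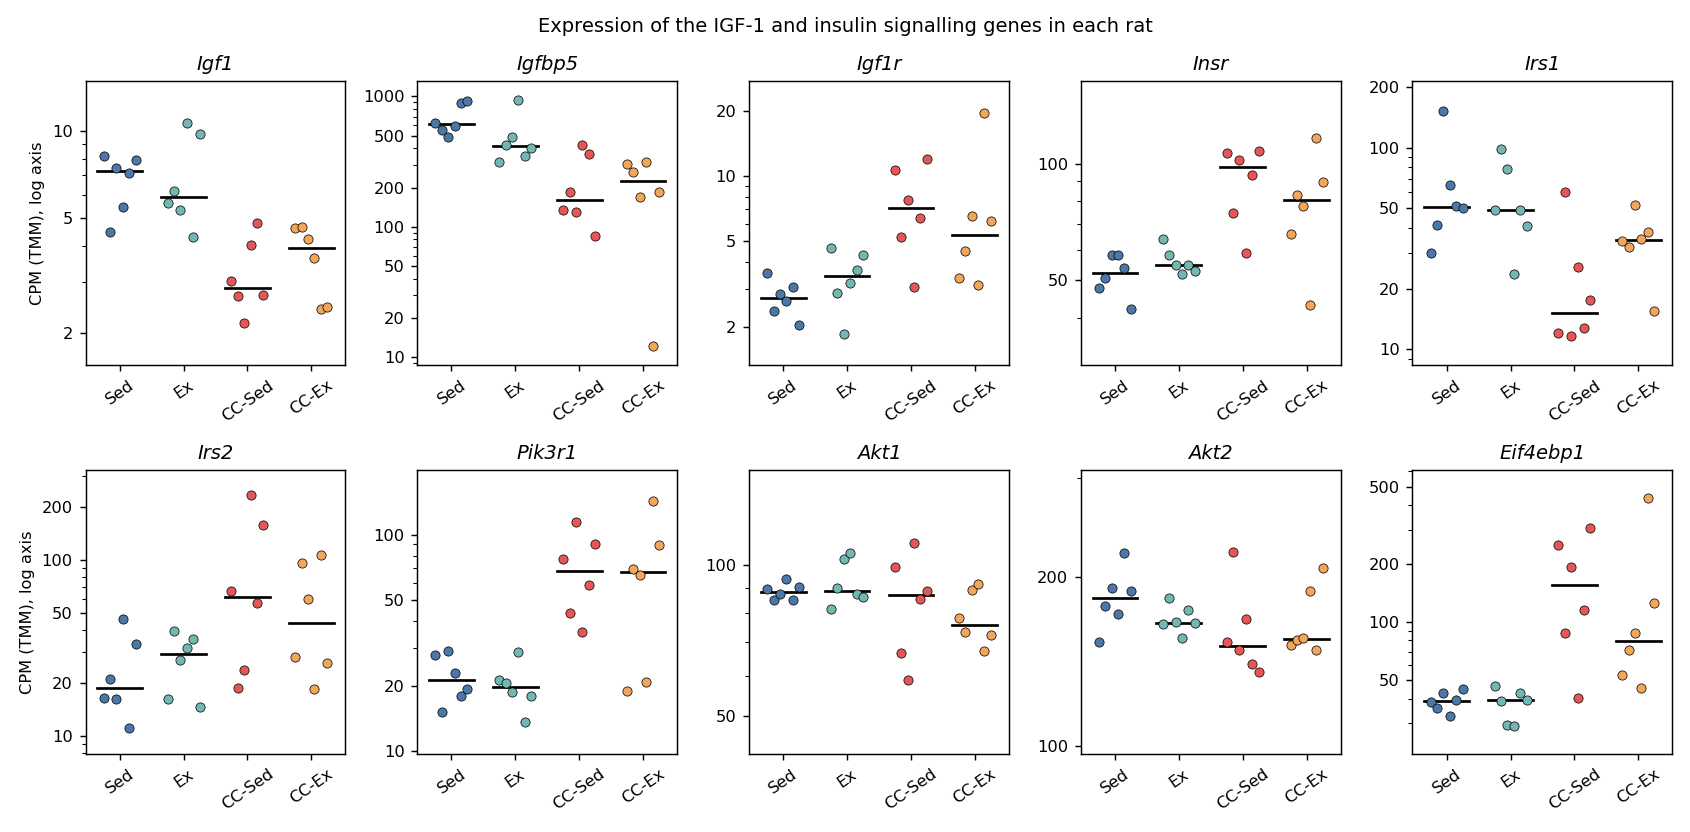
Level of each gene in each of the 24 rats, in CPM after TMM scaling on a log axis, by group, with 1 point per rat and a line at the group median. Points of CC-Sed and CC-Ex lie mostly above the saline groups for Igf1r, Insr, Pik3r1 and Eif4ebp1 and below them for Igf1 and Igfbp5, while for Akt1 and Akt2 they lie below, within and above the saline range.

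**Figure D2:**
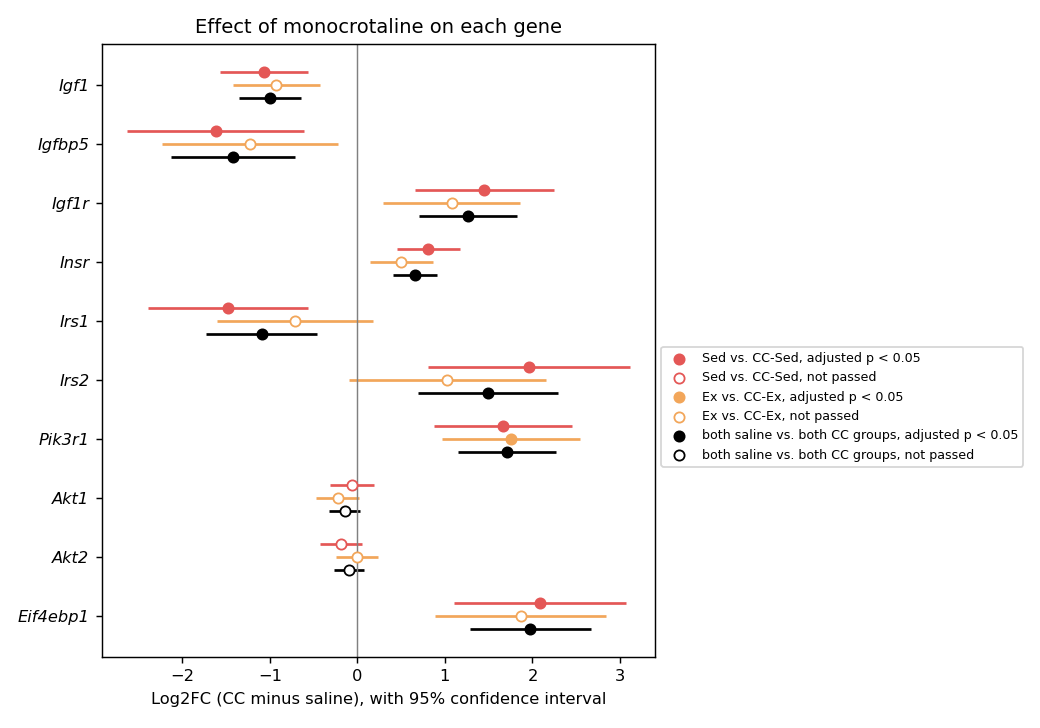
Log2FC of each gene, CC minus saline, with its 95% confidence interval from the edgeR model, in sedentary rats, in trained rats and with both saline groups against both CC groups. Filled points passed the adjusted test, as 8 of 10 did in the sedentary and pooled comparisons and 1 of 10 (Pik3r1) in the trained comparison.

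Igf1 (ENSRNOG00000004517), the growth factor that muscle makes for itself in addition to what the liver supplies, was lower in CC rats. Its level lay between 4.46 and 8.17 CPM in Sed (median 7.27), between 4.29 and 10.6 CPM in Ex (median 5.90), between 2.16 and 4.78 CPM in CC-Sed (median 2.86) and between 2.42 and 4.62 CPM in CC-Ex (median 3.92). Every one of the 12 CC rats was below the saline median, and 9 of 12 were below all saline rats. Igf1 fell by 1.07 on the log2 scale in Sed vs. CC-Sed (SE 0.24, 95% confidence interval -1.57 to -0.57, adjusted p = 0.0153). For Ex vs. CC-Ex its Log2FC was -0.92 (SE 0.24, adjusted p = 0.0577), and pooled it fell by 1.00 (SE 0.17, adjusted p = 0.00067), to 0.501 of the saline level. These values rest on 78 to 457 counts per rat.

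Fibroblasts and macrophages of muscle express Igf1 as well as fibres, and their markers were examined. In Sed vs. CC-Sed 0 of 10 fibroblast markers passed or had an unadjusted p-value under 0.05 by edgeR (median Log2FC -0.62). In Ex vs. CC-Ex 0 passed and 5 had an unadjusted p-value under 0.05 (median Log2FC -1.02). Of 10 fibroblast markers, 4 collagens (Col1a1, Col1a2, Col3a1 and Col6a1) fell in the pooled comparison and the median Log2FC of the list was -0.82. The summed level of the 10 markers had a median of 2262 CPM in Sed (762 to 3902), 3014 CPM in Ex (1340 to 6110), 1686 CPM in CC-Sed (1240 to 3080) and 1378 CPM in CC-Ex (690 to 2796). Its median was lower in CC-Ex than in CC-Sed, and the Igf1 median was higher (3.92 and 2.86 CPM). Between these groups the ranges of Igf1 and of the marker sum overlapped. Igf1 did not pass there (Log2FC 0.18, edgeR unadjusted p = 0.45). With the mean log2 CPM of these markers as a covariate, the pooled Log2FC of Igf1 was -0.65 (adjusted p = 0.00324), and between Ex and CC-Ex it was -0.39 (adjusted p = 0.353). In Sed vs. CC-Sed Igf1 passed in each of 9 alternative fits, this covariate among them, with Log2FC values between -1.22 and -0.91. The 9 include the fit with no filter, which equals the main fit because the filter removed 0 genes. Which cells account for the change in Igf1 was not tested. Of the macrophage markers, 11 of 12 were measured and 0 passed in any of these 3 comparisons, or had an unadjusted p-value under 0.05 by edgeR.

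Igfbp5 (ENSRNOG00000017206), the IGF-binding protein that muscle cells secrete and that holds IGF-1 near the cell, also fell. It lay between 486 and 925 CPM in Sed (median 608), between 313 and 936 CPM in Ex (median 414), between 85.3 and 425 CPM in CC-Sed (median 159) and between 12.2 and 313 CPM in CC-Ex (median 224). Sed and CC-Sed did not overlap, which was so for 3 of the 10 genes (Igfbp5, Insr and Pik3r1) and, in either direction, for 3.61% of all genes. The lowest level, 12.2 CPM, belonged to CC-Ex replicate 5. The Log2FC of Igfbp5 was -1.62 in Sed vs. CC-Sed (SE 0.49, adjusted p = 0.0491), close to the threshold, and that call was lost in 11 of the 12 fits with 1 rat left out. Pooled it was -1.42 (SE 0.34, adjusted p = 0.00608) and passed in each of the 24 such fits. The value for Ex vs. CC-Ex was -1.23 (SE 0.48, adjusted p = 0.149). With the fibroblast covariate the pooled value was -1.16 (adjusted p = 0.0375) and the call in Sed vs. CC-Sed was lost (Log2FC -1.49, adjusted p = 0.0536).

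Both receptors were higher in CC muscle. Igf1r (ENSRNOG00000014187), the IGF-1 receptor, lay between 2.05 and 3.56 CPM in Sed (median 2.73), between 1.86 and 4.65 CPM in Ex (median 3.43), between 3.07 and 12.0 CPM in CC-Sed (median 7.10) and between 3.12 and 19.7 CPM in CC-Ex (median 5.35). All 12 CC rats were above the saline median and 8 of 12 were above every saline rat, while CC-Sed replicate 4 and CC-Ex replicates 1, 2 and 4 lay within the saline range. Igf1r rose in Sed vs. CC-Sed with a Log2FC of 1.45 (SE 0.38, adjusted p = 0.0307), a call that held in 4 of the 12 fits with 1 rat left out. Its Log2FC was 1.08 in Ex vs. CC-Ex (SE 0.38, adjusted p = 0.119), and 0.45 (adjusted p = 0.496) without CC-Ex replicate 5, the rat at 19.7 CPM. Pooled, Igf1r rose by 1.26 (SE 0.27, adjusted p = 0.00285), and by 0.94 without that rat (adjusted p = 0.00251).

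Insr (ENSRNOG00000029986), the insulin receptor, also rose. It lay between 42.2 and 57.9 CPM in Sed (median 52.2), between 51.9 and 63.7 CPM in Ex (median 54.7), between 58.8 and 108 CPM in CC-Sed (median 97.8) and between 43.1 and 117 CPM in CC-Ex (median 80.4). Sed and CC-Sed did not overlap, and of the CC-Ex rats only replicate 4 lay within the saline range. Insr rose by 0.81 on the log2 scale in Sed vs. CC-Sed (SE 0.17, adjusted p = 0.0137), or 1.75-fold, and it passed in each of the 12 fits with 1 rat left out. Among trained rats the Log2FC was 0.50 (SE 0.17, adjusted p = 0.112), and pooled it was 0.66 (SE 0.12, adjusted p = 0.00117).

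The adaptors that couple these receptors to PI3-kinase moved in opposite directions. Irs1 (ENSRNOG00000014597), the adaptor most tied to insulin action in muscle, lay between 29.9 and 153 CPM in Sed (median 50.8), between 23.5 and 98.8 CPM in Ex (median 49.1), between 11.7 and 60.5 CPM in CC-Sed (median 15.1) and between 15.4 and 52 CPM in CC-Ex (median 34.8). In CC-Sed 5 of 6 rats were below the Sed median, the exception being replicate 2 at 60.5 CPM. Irs1 fell in Sed vs. CC-Sed (Log2FC -1.48, SE 0.44, adjusted p = 0.0479), in 3 of the 12 fits with 1 rat left out. Without that rat or any other, the pooled fall, to 0.468 of the saline level (SE of the Log2FC 0.31, adjusted p = 0.0136), kept its call, with Log2FC values between -1.37 and -0.87. In Ex vs. CC-Ex the Log2FC was -0.71 (SE 0.43, adjusted p = 0.316).

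Irs2 (ENSRNOG00000023509), which takes part in insulin signalling in liver and muscle and is itself a FoxO target, rose. It lay between 11.0 and 45.8 CPM in Sed (median 18.7), between 14.6 and 39.3 CPM in Ex (median 29.3), between 18.6 and 233 CPM in CC-Sed (median 61.7) and between 18.4 and 106 CPM in CC-Ex (median 43.9). In the CC groups 7 of 12 rats were above every saline rat, and the other 5 spread through the saline range, so that the groups overlapped. The Log2FC was 1.96 in Sed vs. CC-Sed (SE 0.56, adjusted p = 0.0416, held in 4 of the 12 fits with 1 rat left out), 1.03 in Ex vs. CC-Ex (SE 0.54, adjusted p = 0.254) and 1.49 pooled (SE 0.39, adjusted p = 0.00887).

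Pik3r1 (ENSRNOG00000018903), which encodes p85α, a subunit that both stabilises the catalytic subunit of PI3-kinase and, in excess, competes for binding to IRS proteins, was the only one of the 10 genes to pass in both comparisons. It lay between 15.2 and 29 CPM in Sed (median 21.2), between 13.5 and 28.6 CPM in Ex (median 19.6), between 35.5 and 114 CPM in CC-Sed (median 67.8) and between 18.9 and 143 CPM in CC-Ex (median 67.2). Sed and CC-Sed did not overlap. In CC-Ex, 4 rats were above every Ex rat, and replicates 1 (18.9 CPM) and 4 (20.8 CPM) were at the saline level. Pik3r1 rose by 1.66 in Sed vs. CC-Sed (SE 0.38, adjusted p = 0.0162), by 1.75 in Ex vs. CC-Ex (SE 0.38, adjusted p = 0.0329) and by 1.71 pooled (SE 0.27, adjusted p = 0.000363). The call in trained rats was lost in 10 of the 12 fits with 1 rat left out, with Log2FC values between 1.38 and 1.95, whereas that in sedentary rats held in all 12.

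Akt1 (ENSRNOG00000028629) and Akt2 (ENSRNOG00000018677), the kinases at the centre of the cascade, of which AKT2 is the form most tied to glucose uptake, passed in neither comparison. Akt1 lay between 84.9 and 93.6 CPM in Sed (median 88.4), between 81.5 and 105 CPM in Ex (median 88.6), between 58.9 and 110 CPM in CC-Sed (median 87.1) and between 67.4 and 91.3 CPM in CC-Ex (median 75.8). Akt2 lay between 153 and 221 CPM in Sed (median 183), between 156 and 183 CPM in Ex (median 166), between 135 and 222 CPM in CC-Sed (median 151) and between 148 and 208 CPM in CC-Ex (median 155). For Akt1, 6 of the 12 CC rats were below every saline rat and 1 was above every one, and for Akt2 the counts were 5 and 1, and the CC range was the wider for both. The pooled Log2FC of Akt1 was -0.14 (95% confidence interval -0.32 to 0.03, adjusted p = 0.201) and that of Akt2 was -0.10 (95% confidence interval -0.27 to 0.07, adjusted p = 0.376), so that a rise or fall of either by more than 0.32 on the log2 scale was outside these intervals.

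Eif4ebp1 (ENSRNOG00000012582), which encodes the translation inhibitor 4E-BP1, showed the largest pooled change in size among the 10 genes. It lay between 32.4 and 44.9 CPM in Sed (median 38.8), between 28.9 and 46.2 CPM in Ex (median 39.1), between 40.3 and 305 CPM in CC-Sed (median 154) and between 45.4 and 438 CPM in CC-Ex (median 79.5). The saline rats were close together, and the CC rats ran from CC-Sed replicate 4 (40.3 CPM) and CC-Ex replicate 4 (45.4 CPM), within the saline range, to CC-Ex replicate 5 (438 CPM), with 10 of 12 above every saline rat. Eif4ebp1 rose by 2.09 in Sed vs. CC-Sed (SE 0.48, adjusted p = 0.0159), or 4.25-fold. Among trained rats the Log2FC was 1.86 (SE 0.47, adjusted p = 0.0525), and 1.01 without CC-Ex replicate 5 (adjusted p = 0.203). Pooled it was 1.98 (SE 0.34, adjusted p = 0.000646), and 1.53 without that rat (adjusted p = 0.000359).

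Training was examined within the saline rats (Sed vs. Ex) and within the CC rats (CC-Sed vs. CC-Ex). In edgeR 0 of the 10 genes passed in either comparison, 0 had an unadjusted p-value under 0.05, and among all 10851 genes 0 passed (118 and 234 had an unadjusted p-value under 0.05, or 1.09% and 2.16%). The Log2FC ranged from -0.48 (Igfbp5) to 0.32 (Igf1r) in Sed vs. Ex and from -0.74 (Irs2) to 0.57 (Irs1) in CC-Sed vs. CC-Ex. Irs1 was above the CC-Sed median in 6 of 6 CC-Ex rats, with a 95% confidence interval of -0.33 to 1.46 for its Log2FC. That of Irs2 was -1.85 to 0.38. These intervals are wide, and changes of more than 2-fold with training were within them for both adaptors. Both values depended on 1 rat. Without CC-Sed replicate 2, the Log2FC of Irs1 was 1.12 (unadjusted p = 0.0093, adjusted p = 0.76), and without CC-Sed replicate 4 that of Irs2 was -0.22. Without CC-Ex replicate 5, it was -0.65 for Igf1r (unadjusted p = 0.0317, adjusted p = 0.315) and -1.09 for Eif4ebp1 (unadjusted p = 0.00464, adjusted p = 0.217), in place of -0.06 and -0.27 with it. By limma-voom with sample quality weights, Eif4ebp1 had a Log2FC of -0.80 in CC-Sed vs. CC-Ex (unadjusted p = 0.0229, adjusted p = 0.627). With the fibroblast covariate Igf1 had one of 0.37 (unadjusted p = 0.0308, adjusted p = 1).

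The difference between the effect of CC in trained and in sedentary rats was tested as an interaction. Its Log2FC ranged from -0.93 for Irs2 (95% confidence interval -2.51 to 0.65) to 0.77 for Irs1 (95% confidence interval -0.50 to 2.03), and 0 of the 10 genes passed or had an unadjusted p-value under 0.05 in edgeR, where 1.42% of all genes had one and 0 passed. The calls made in sedentary but not in trained rats are therefore not shown to differ between them. The interaction also depended on single rats. Without CC-Ex replicate 5 its Log2FC went from -0.37 to -0.96 for Igf1r (unadjusted p = 0.0223, adjusted p = 0.903) and from -0.22 to -1.04 for Eif4ebp1 (unadjusted p = 0.0376, adjusted p = 0.903). Without CC-Sed replicate 2 it was 1.32 for Irs1 (unadjusted p = 0.0218) and 0.30 for Akt2 (unadjusted p = 0.0479), and with the fibroblast covariate it was 0.52 for Igf1 (unadjusted p = 0.0342), none of which passed after adjustment. Without CC-Sed replicate 4 that of Irs2 was -0.41.

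Among the 12 CC rats, 5 of the 10 genes varied together from rat to rat, Igf1r, Insr, Pik3r1 and Eif4ebp1 in the same direction and Igfbp5 in the opposite one. CC-Ex replicate 5 and CC-Sed replicates 6, 1 and 3 had the 4 highest levels of Eif4ebp1 (438, 305, 250 and 193 CPM), of Igf1r (19.7, 12.0, 10.6 and 7.78 CPM) and of Insr (117, 108, 106 and 102 CPM). The same 4 rats had the lowest levels of Igfbp5 (12.2, 85.3, 134 and 131 CPM). After the mean of each group was taken out, Igf1r and Eif4ebp1 had a Pearson r of 0.98 (permutation p = 1e-05, the smallest that 100000 permutations can give, adjusted p = 0.00045) and a Spearman rho of 0.99 (permutation p = 3e-05, adjusted p = 0.0011) over n = 12 CC rats. Leaving out CC-Ex replicate 5 and CC-Sed replicate 4, the rats farthest from the median of Igf1r, gave an r of 0.97.

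Of the 45 pairs of the 10 genes, 10 passed by both measures among the CC rats after adjustment, 7 positive and 3 negative. All pairs among Igf1r, Insr, Pik3r1 and Eif4ebp1 were positive (r between 0.84 and 0.98). Igfbp5 was opposed to Igf1r (r = -0.92), Eif4ebp1 (r = -0.90) and Pik3r1 (r = -0.72), and it followed Igf1 (r = 0.69, rho = 0.73). Over these rats the median size of r with the other 10850 genes was 0.61 for Igfbp5 and for Igf1r. It was 0.60 for Eif4ebp1, 0.51 for Insr, 0.50 for Pik3r1 and 0.47 for Igf1. The r of Igfbp5 with Pik3r1 and with Igf1 was thus not far above its r with a typical gene. Insr and Igfbp5 did not pass both measures among the CC rats alone. Irs1, Irs2, Akt1 and Akt2 were in none of the 10 pairs. Among the 12 saline rats 0 of 45 pairs passed both measures, and there the r of Igf1r and Eif4ebp1 was 0.51 (permutation p = 0.15, adjusted p = 0.5), falling to 0.06 without Ex replicates 1 and 3. Whether the correlations differ between saline and CC rats was not tested.

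This pattern ran through much of the transcriptome. CC-Ex replicate 5 and CC-Sed replicates 6, 1 and 3 also had the highest values on the first principal component. Over the 12 CC rats, an r above 0.8 in size with Eif4ebp1 was found for 25.1% of the other 10850 genes, with Igf1r for 26.3%, with Igfbp5 for 25.9%, with Insr for 9.43% and with Pik3r1 for 6.13%. The share was 0.0461% for Irs1 and 0.535% for Irs2. Among the saline rats it was 0.747% for Eif4ebp1 and 0.304% for Igf1r. Without CC-Ex replicate 5, over the other 11 CC rats, the share was 14.5% for Eif4ebp1, 14.9% for Igf1r, 11.2% for Igfbp5, 6.52% for Insr and 3.22% for Pik3r1. The rats come from both CC groups, and the mean of each group was taken out before the correlation.

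**Figure D3:**
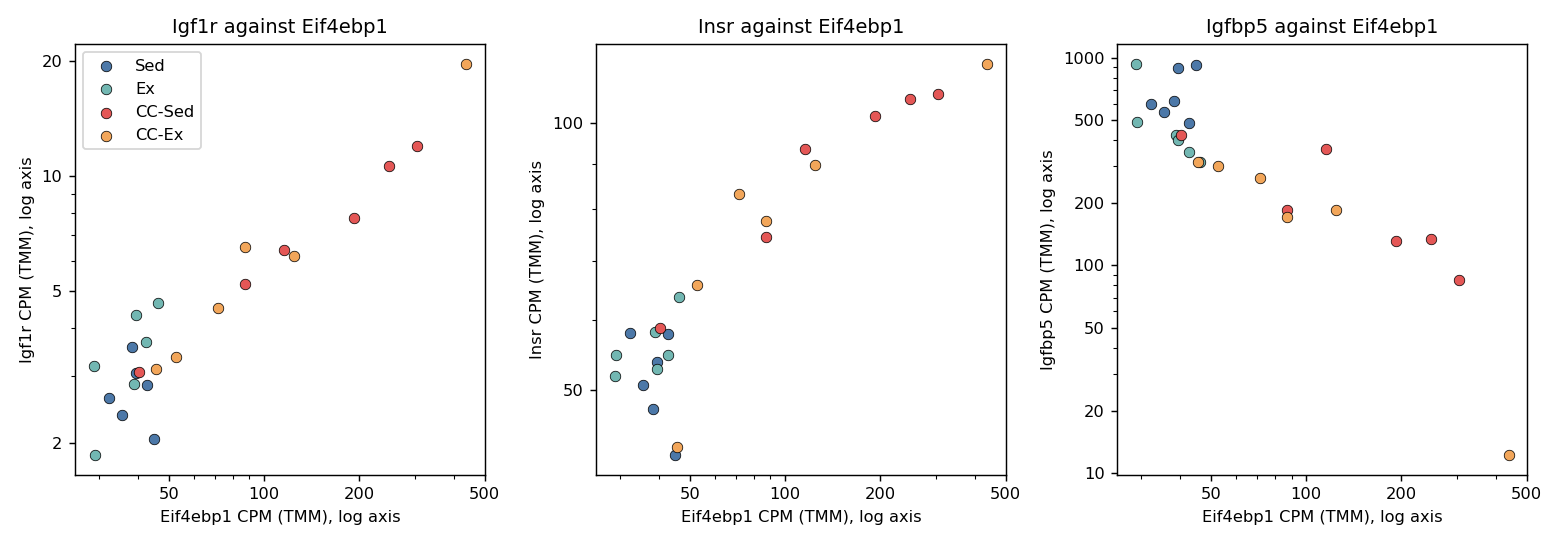
Levels of Igf1r, Insr and Igfbp5 against that of Eif4ebp1 in each of the 24 rats, in CPM on log axes, with 1 point per rat coloured by group. The CC rats spread from the saline cluster near 39 CPM of Eif4ebp1 to CC-Ex replicate 5 at 438 CPM, with Igf1r and Insr rising and Igfbp5 falling along the way.

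The levels of receptor and ligand, and of the adaptors, were also set against each other within each rat as a ratio, which removes the library scaling. The ratios were chosen after the opposite directions of these genes had been seen in the same rats, so they are given as a description, with no test. Each ratio also carries the lengths of both genes, so only its change between groups is read. The ratio of Igf1r to Igf1 lay between 0.258 and 0.531 in Sed, between 0.301 and 0.856 in Ex, between 0.764 and 4.44 in CC-Sed and between 0.731 and 8.17 in CC-Ex. Sed and CC-Sed did not overlap. The mean log2 ratio of CC-Sed exceeded that of Sed by 2.42 and that of CC-Ex exceeded that of Ex by 1.72, or by 1.26 without CC-Ex replicate 5.

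The ratio of Irs2 to Irs1 had a median of 0.528 in Sed and 0.377 in Ex, and in the CC rats of 4.98 (CC-Sed) and 1.41 (CC-Ex). CC-Sed replicate 2, with a ratio of 0.308, was the only CC-Sed rat within the Sed range. On the log2 scale the mean ratio of CC-Sed exceeded that of Sed by 3.12 and that of CC-Ex exceeded that of Ex by 1.46. The mean log2 ratio of Insr to Igf1r was 3.69 in CC-Sed and 4.25 in Sed, and 3.71 in CC-Ex and 4.09 in Ex.

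**Figure D4:**
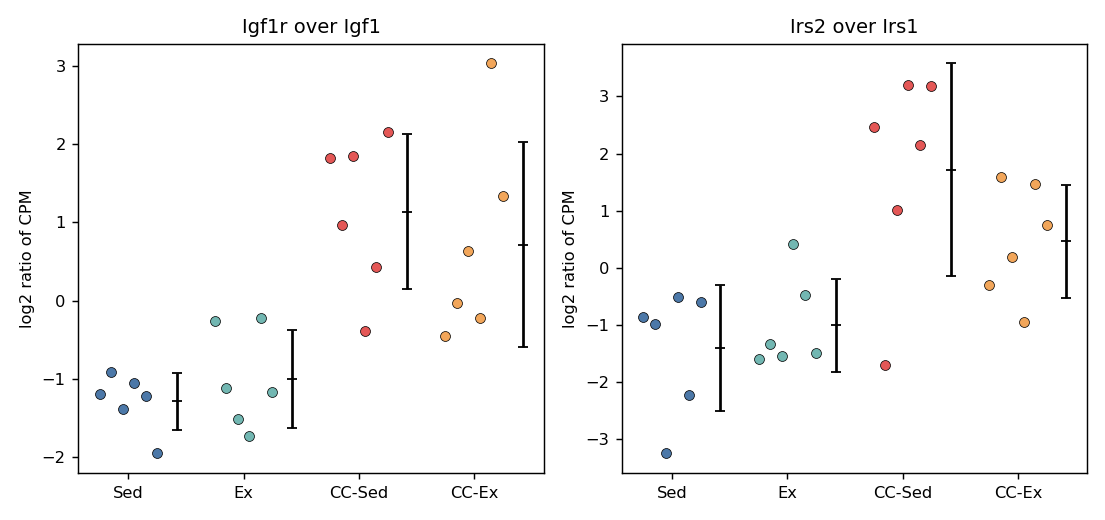
Log2 ratio of Igf1r to Igf1 and of Irs2 to Irs1 in each rat, by group, with 1 point per rat and, beside it, the group mean and SD (n = 6). For Igf1r to Igf1, each CC-Sed rat lies above each Sed rat. For Irs2 to Irs1, 5 of 6 CC-Sed rats lie above each Sed rat.

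Another 93 genes of the same pathway, from a wider list also chosen with earlier results of these data known, were measured. In the pooled comparison 20 of them rose, or 21.5% against 17.2% of all genes, and 24 fell, or 25.8% against 10.6% of all genes. Between Sed and CC-Sed 5 rose and 5 fell, or 5.38% each way against 4.3% and 2.16% of all genes. Between Ex and CC-Ex 3 rose (Foxo1, Foxo3 and Igfbp3), or 3.23% against 0.875% of all genes, and 0 fell, against 0.12%. With 1 rat left out, between 6 and 19 of the 93 genes passed in Sed vs. CC-Sed and between 0 and 12 in Ex vs. CC-Ex, where 0 passed in 8 of the 12 fits (without any one Ex rat or without CC-Ex replicate 5 or 6). In Ex vs. CC-Ex 0 also passed with upper-quartile normalization, the replicate block, the fibroblast covariate or only these 12 rats. The calls of Foxo1, Foxo3 and Igfbp3 in trained rats were lost in each of these fits. The pooled split was 13 rises to 25 falls under upper-quartile normalization, and 9 to 14 with the fibroblast covariate. The median Log2FC of the 93 genes was -0.03, and that of all genes was 0.01. The shares of each smaller list below are set against the same 17.2% higher and 10.6% lower over all genes.

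Among the 14 ligands and binding proteins, 7 were measured, of which 1 rose (14.3%) and 3 fell (42.9%) in the pooled comparison. Igfbp3, the main carrier of IGF-1 in blood, rose by 0.68 (SE 0.10, adjusted p = 0.000249), from a mean of 9.31 to 14.9 CPM, with 12 of 12 CC rats above the saline median. Igfbp4, an inhibitory binding protein, had a Log2FC of -0.66, and Htra1, a protease of binding proteins, of -0.57, and both fell. Of 12 receptors and adaptors 2 rose (16.7%, near the share over all genes) and 4 fell (33.3%). Grb2 (Log2FC -0.30), the adaptor leading to RAS, and Sh2b2 (Log2FC -1.18), an adaptor that binds the insulin receptor, fell.

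In the list of PI3-kinases, phosphatases and other negative regulators 3 of 16 rose (18.8%, near the share over all genes) and 6 of 16 fell (37.5%). Pik3c2a, a class II PI3-kinase, rose by 0.85 (adjusted p = 0.000392), and so did Inpp5k (Log2FC 0.34), a phosphatase of PI3-kinase products. Socs2, a feedback inhibitor of growth hormone signalling, fell with a Log2FC of -1.15 (adjusted p = 0.000358), as did Pik3cd (Log2FC -1.02), a catalytic subunit best known from leukocytes, and Inppl1 (Log2FC -0.56), the phosphatase SHIP2. Of 9 regulators of AKT, 3 rose and 3 fell (33.3% each way), the latter including the pseudokinases Trib2 (Log2FC -1.15) and Trib1 (Log2FC -0.90), of which tribbles proteins are known to bind AKT.

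Downstream of AKT, the FoxO genes had the largest values. Foxo1 lay at a mean of 11.8 CPM in saline rats and 63.6 CPM in CC rats, and rose by 2.43 pooled (SE 0.37, adjusted p = 0.000292), by 2.40 in Sed vs. CC-Sed (adjusted p = 0.0138) and by 2.45 in Ex vs. CC-Ex (adjusted p = 0.0329). Foxo3 went from 13.4 to 39.7 CPM and rose by 1.57 pooled (adjusted p = 0.000321), by 1.62 in Sed vs. CC-Sed (adjusted p = 0.0137) and by 1.52 in Ex vs. CC-Ex (adjusted p = 0.035). For both, 12 of 12 CC rats were above the saline median. Foxo4 had a smaller rise, with a pooled Log2FC of 0.24 (adjusted p = 0.0116). These were the 3 of 13 AKT substrates and metabolic targets that passed (23.1% higher and 0% lower).

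In the mTOR and translation list 6 of 20 rose (30%) and 2 of 20 fell (10%, near the share over all genes) in the pooled comparison. In edgeR 0 passed in either 2-group comparison, and 5 of 20 in Sed vs. CC-Sed and 7 of 20 in Ex vs. CC-Ex had an unadjusted p-value under 0.05, against 28.4% and 22.6% of all genes. Mtor itself rose by 0.25 (adjusted p = 0.0109) and Tsc1, which restrains mTOR, by 0.46 (adjusted p = 0.00688), while Mlst8, a subunit of both mTOR complexes, fell (Log2FC -0.31). Of 16 genes of the RAS-MAPK arm 2 rose (12.5%) and 6 fell (37.5%), among them Sos1, the exchange factor of RAS (Log2FC -0.26).

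**Figure D5:**
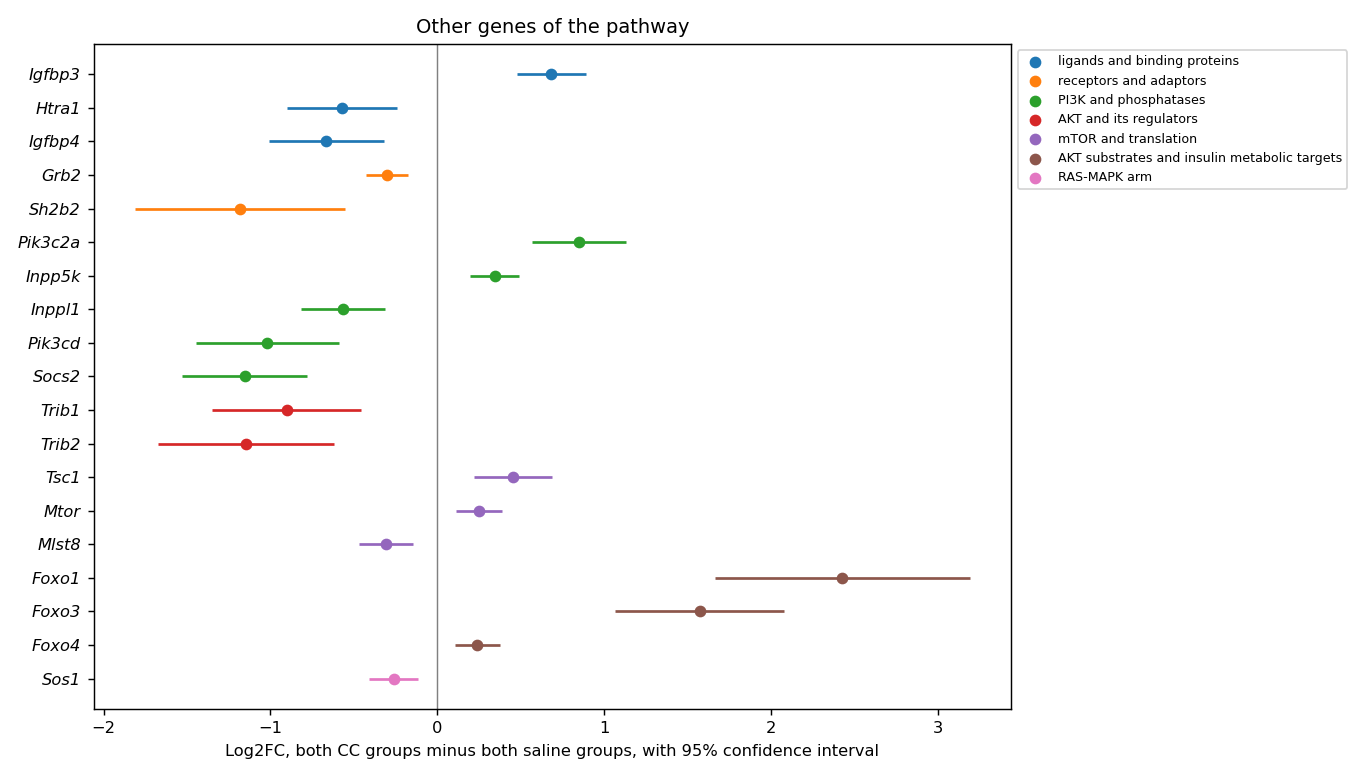
Log2FC of 19 of the 20 wider pathway genes with the smallest pooled p-values, both CC groups minus both saline groups, with 95% confidence intervals and coloured by their place in the pathway. Foxo1 (2.43) and Foxo3 (1.57) lie farthest to the right and Sh2b2 (-1.18), Socs2 (-1.15) and Trib2 (-1.15) farthest to the left.

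Genes with the pattern most like each of the 8 genes that passed were found by Pearson correlation of log2 CPM over the 24 rats, a description that includes the difference between groups. Eif4ebp1 was closest to Nob1 (r = 0.98), Zfp280d (r = 0.97) and Naca (r = 0.97), and Igf1r to Smc5 (r = 0.96), Cdc25b (r = 0.96) and Edc4 (r = 0.96). Insr was closest to Ube2j1 (r = 0.94), Naca (r = 0.94) and Tns2 (r = 0.93), so that Naca was near both Insr and Eif4ebp1. Pik3r1 was closest to Klf15 (r = 0.94), Sesn1 (r = 0.93) and Kiz (r = 0.93). Igf1 was closest to Leprot (r = 0.94), Tspan11 (r = 0.91) and Mfap4 (r = 0.89), and Igfbp5 to Sel1l3 (r = 0.95), Osr1 (r = 0.93) and Trim7 (r = 0.93). The adaptors had no partner as close, with Frat2 (r = 0.83), Dclk3 (r = 0.77) and Src (r = 0.76) for Irs1 and Slc20a1 (r = 0.84), Ccnl1 (r = 0.83) and Hibadh (r = 0.82) for Irs2.

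Slow-fibre markers, of which 4 of 7 were measured, varied widely within groups, from 16.9 to 5285 CPM in sum among CC-Ex rats and from 81.0 to 7381 CPM among CC-Sed rats. All 4 were higher in CC-Sed than in Sed, with a median Log2FC of 1.83 (1.64 to 2.01). The median was 0.10 in Ex vs. CC-Ex and -1.73 for the interaction. In edgeR 0 of 4 passed or had an unadjusted p-value under 0.05 in any comparison. With this spread, the lack of a call does not show that slow-fibre levels were unchanged. With their mean log2 CPM as a covariate the same counts of the 10 genes passed, 8 in Sed vs. CC-Sed, 1 in Ex vs. CC-Ex and 8 pooled.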

How the data were processed

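RNA-seq data of the medial gastrocnemius of 24 rats, 6 per group, were analysed, and the labels gave each library's group and replicate number. Reads had been trimmed (Trim Galore) and quantified against the Ensembl transcriptome of build mRatBN7.2 with Salmon, and the authors deposited gene-level sums of these estimated counts as whole numbers, not scaled for depth, with none below 10, so that low genes had been removed before deposit. Reads were not mapped again.

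Counts were analysed with edgeR 4.0.16 in R 4.3.3: TMM scaling, a quasi-likelihood model of 4 groups and Benjamini-Hochberg adjustment over 10851 genes. The design had been written for counts and was kept for the estimated counts. Standard errors were derived from the Log2FC and its F statistic. The scripts were tested on simulated data. Correlations within groups used log2 CPM with a prior count of 2 and 100000 permutations within groups. Alternatives were DESeq2 1.42.0, limma-voom (limma 3.58.1), upper-quartile normalization, a minimum of 100 counts, no filter, only the rats compared, a replicate block, a covariate for library number or for slow-fibre score, a Log2FC minimum of 1 and each rat left out. A fibroblast covariate and the ratios, given without a test, were added after seeing the data. Beyond the 10 genes, the text names 19 of the 20 wider pathway genes with the smallest pooled p-values among those that passed (1 is not reported here), and for each of the 10 that passed, the 3 genes most correlated with it. The members and lists were chosen with earlier results of these data known. Start-site windows came from RefSeq (GRCr8), which differs from the build of the counts, and coordinates refer to GRCr8.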

Additional observations from a re-analysis of the deposited data

Results flagged for a closer look

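Of the 40 sets of 6 rats (10 genes in 4 groups), 5 held a rat far from the other 5 by Dixon's criterion on CPM. Its threshold is set for about 1 in 20 under a normal spread, which was not tested for CPM. All 5 flagged values were high ones and the sets share rats, so this count is not read against chance. The criterion was not run on log2 CPM, where high values stand out less. The low Igfbp5 level of CC-Ex replicate 5, at 12.2 CPM where the next rat had 171 CPM, was not flagged on this scale. CC-Ex replicate 5 was far above its group for Igf1r, at 19.7 CPM where the next rat had 6.53 CPM, and for Eif4ebp1, at 438 CPM where the next had 125 CPM. Sed replicate 3 was high for Irs1, at 153 CPM against 65 CPM. CC-Sed replicate 2 was also high for Irs1, at 60.5 CPM against 25.5 CPM. Ex replicate 4 was high for Igfbp5, at 936 CPM against 487 CPM. No reason for these values was tested.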

How the results depend on the processing

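In the pooled comparison the 8 genes passed in all 24 fits that left out 1 rat, and 8 passed under every alternative except limma-voom (9, with Akt1), the minimum of 100 counts (6 of the 8 genes still measured) and a Log2FC minimum of 1 (6, without Igf1 and Insr). In Sed vs. CC-Sed, 8 passed, and between 3 (without CC-Sed replicate 6) and 7 passed with 1 rat left out. There 7 passed with the library number, the fibroblast score or limma-voom. A Log2FC minimum of 1 left out Insr there (Log2FC 0.81). With only the rats compared 6 passed, as did 6 of the 8 genes still measured with the minimum of 100 counts. In Ex vs. CC-Ex, 1 passed, against 3 with DESeq2, 2 with a minimum of 100 counts, 4 with limma-voom and 0 with upper-quartile normalization, the replicate block, the library number, the fibroblast score or only the 12 rats compared, and between 0 and 5 (without CC-Ex replicate 4) with 1 rat left out. No direction reversed among the genes that passed. Calls among all genes in Ex vs. CC-Ex moved from 108 to 685 with DESeq2, 1043 with limma-voom, 152 with the slow-fibre score, 42 with the library number, 23 with upper-quartile normalization, 3 with the fibroblast score and 1 with the block or only these 12 rats. In Sed vs. CC-Sed they moved from 701 to 1336 with DESeq2, 2474 with limma-voom and 1375 with the slow-fibre score, and in the pooled comparison from 3017 to 1701 with the fibroblast score. With 1 rat left out they ranged from 173 to 1726 in Sed vs. CC-Sed, from 2 to 847 in Ex vs. CC-Ex and from 2207 to 3832 pooled. The replicate numbers join different rats, and the labels do not describe them as pairs. Residuals of same-numbered rats had mean correlations of 0.0947 (Sed and CC-Sed, from -0.505 to 0.357) and -0.172 (Ex and CC-Ex, from -0.423 to 0.152). Such means over 6 correlations cannot decide whether same-numbered rats share a block. With the block, 6 passed in Sed vs. CC-Sed, 0 in Ex vs. CC-Ex and 8 pooled. Counts were lowest for Igf1 (78 to 457 per rat) and Igf1r (76 to 841), which leaves them the least precise of the 10 in counting terms.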
